A study of Homo sapiens with 3 samples.

Results

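Laboratories that quantify miRNAs by qPCR often divide by a reference miRNA that is taken to be level across samples, and 9 mature miRNAs that are used in this way were followed here across 3 cancer cell lines. The 9 were hsa-miR-103a-3p, hsa-miR-107, hsa-miR-191-5p, hsa-miR-425-5p, hsa-miR-423-3p, hsa-miR-423-5p, hsa-miR-151a-3p, hsa-miR-151a-5p and hsa-miR-186-5p. They were chosen by name, all 9 were listed in both tables, and they are 9 of 2588 mature miRNAs. The question was which scaling of the libraries keeps them at the same level in the lines.

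The study sequenced small RNA from parental, unedited C643 cells (a thyroid carcinoma line), ES-2 cells (an ovarian carcinoma line) and Huh-7 cells (a hepatocellular carcinoma line), in which it also deleted MIR21, as part of work on circular RNA decoys of miR-21. The cells of these libraries carried no decoy and no deletion, were grown in DMEM with serum and were harvested 48 h after seeding. Each line is represented by 1 library, so no difference between lines has a replicate check, no test of the lines was possible, and a line cannot be told apart from its library. The hepatocyte miRNA miR-122-5p held 13.3% of the miRNA reads in Huh-7, 0.00572% in C643 and 0.000361% in ES-2, which matched the label of the liver line.

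A miRNA is cut from 1 arm of a hairpin precursor, the 5p or the 3p arm, and loaded into an Argonaute protein, where bases 2 to 8, the seed, pair with target mRNAs. miR-103a-3p and miR-107 are paralogs in introns of the pantothenate kinase genes, known for targeting Dicer and for a role in insulin sensitivity. miR-191-5p and miR-425-5p come from neighbouring hairpins, miR-423-5p and miR-423-3p are opposite arms of 1 hairpin, and so are the arms of miR-151a, whose hairpin lies in the gene of focal adhesion kinase. As a reference, a miRNA is useful only if its own amount per cell does not change between the samples compared. No value used here gives an amount per cell. Each scaling below compares relative levels only, so whether a member is level per cell was not tested.

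The mature sequences of the 5 members found in the RefSeq table (GRCh38.p14) are given here 5′ to 3′ with the seed in capitals. They show why the miR-103a and miR-107 reads are hard to separate. Whether the reads of the other members separate cleanly from those of similar miRNAs was not tested.
hsa-miR-103a-3p: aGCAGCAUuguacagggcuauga
hsa-miR-107: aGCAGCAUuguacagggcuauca
hsa-miR-191-5p: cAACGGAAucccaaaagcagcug
hsa-miR-423-5p: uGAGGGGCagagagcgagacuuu
hsa-miR-423-3p: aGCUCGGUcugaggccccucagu
miR-103a-3p and miR-107 differed at 1 of 23 bases, G22C, counted from 1 at the 5′ end with the base of miR-103a-3p first, and so share the seed GCAGCAU, which no other of the 2370 mature miRNAs in the RefSeq table has. A read that ends before that base fits both, so their split is uncertain. The seed GAGGGGC of miR-423-5p is also that of miR-3184-5p, which is annotated on the opposite strand of the same locus and had 0 reads in all 3 libraries, as did miR-3184-3p. miR-425-5p, miR-186-5p and both arms of miR-151a are described by name.

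The deposited values are called CPM but were reads multiplied by a library factor. A read counted for 0.282 units in Huh-7, 0.117 in C643 and 0.694 in ES-2. From these steps the recovered depth was 2173587, 8183100 and 1663181 miRNA reads. The columns summed to 612015, 959302 and 1154552 in the same order, so the deposited scale and the share of the column total set the libraries differently against each other. Going from share to the deposited scale raised every miRNA of ES-2 relative to Huh-7 by 0.92 on the log2 scale, raised C643 relative to Huh-7 by 0.65 and lowered C643 relative to ES-2 by 0.27. C643 came in a separate table that may have had a normalization of its own, so its levels are set beside those of the other lines as a description only. 95% intervals cover counting error only.

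Together the 9 members held 7.3% of the miRNA reads in Huh-7 (Wilson 95% interval 7.27 to 7.33), 2.4% in ES-2 (2.38 to 2.43) and 2.74% in C643 (2.73 to 2.75). On the deposited scale they summed to 44674, 27741 and 26304 units. The share was thus largest in Huh-7, and the gap between Huh-7 and the other lines was smaller on the deposited scale. miR-107 was by far the least abundant member, ranked between 127 and 199 among the miRNAs of a library, whereas the other 8 ranked between 7 and 64.

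**Figure D1:**
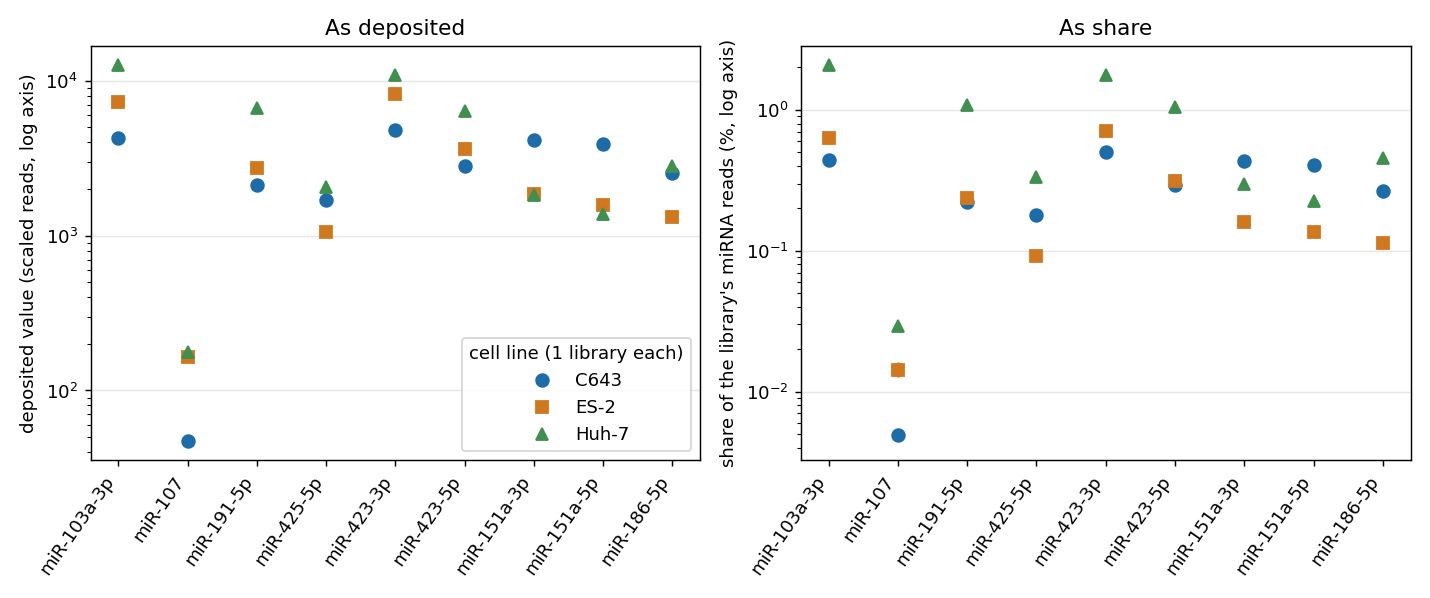
The level of each of the 9 members in the 3 libraries, as the deposited value (left) and as the share of the library's miRNA reads in percent with Wilson 95% intervals, mostly smaller than the points (right), both on log axes. Huh-7 (triangles) is highest for 7 members on both scales, and C643 (circles) is highest for both arms of miR-151a.

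The order of the members within a library was clear of counting error: for each of the 8 neighbouring places in each library, the 95% interval of the ratio of reads lay above 1. miR-423-3p was first in C643 and ES-2 and miR-103a-3p was second, and in Huh-7 these changed places. In C643 the arms of miR-151a followed in places 3 and 4. They stood in places 5 and 6 in ES-2 and in places 7 and 8 in Huh-7. miR-107 was last in every library.

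miR-103a-3p was counted at 4254 units in C643 (36291 reads), 7301 in ES-2 (10517 reads) and 12645 in Huh-7 (44910 reads). Its share was 2.07% in Huh-7, 0.443% in C643 and 0.632% in ES-2. The order of the lines was the same on both scales, and Huh-7 exceeded C643 by 2.97-fold as deposited (95% interval 2.93 to 3.01) and by 4.66-fold by share (4.59 to 4.72). Its precursors, MIR103A1 (chr5:168560896-168560973, minus strand, GRCh38) and MIR103A2 (chr20:3917494-3917571, plus strand), lie in introns of PANK3 and PANK2. They give the same mature sequence, and the chromosome 20 copy was listed with 50.2% of the reads in Huh-7, 51% in C643 and 49.7% in ES-2, so the counts do not show which copy was transcribed. miR-103b, annotated on the opposite strand at both copies, had 0 reads in each library, which allows a share of up to 0.000138% in Huh-7, 3.67e-05% in C643 and 0.00018% in ES-2.

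miR-107, from MIR107 in an intron of PANK1 (chr10:89592747-89592827, minus strand), was counted at 46.9 units in C643 (400 reads), 165 in ES-2 (238 reads) and 178 in Huh-7 (631 reads). ES-2 and Huh-7 could not be separated on the deposited scale, where Huh-7 was 1.08-fold higher with an interval of 0.925 to 1.25. By share they differed 2.03-fold (1.74 to 2.36). C643 was 3.79-fold below Huh-7 as deposited (3.34 to 4.31), and the log2 range over the lines, the highest minus the lowest log2(level + 1), was the widest of the 9 members at 1.90 as deposited and 2.54 by share. For each read of miR-107 there were 71.2 reads of miR-103a-3p in Huh-7 (65.8 to 77.1), 44.2 in ES-2 (38.9 to 50.5) and 90.7 in C643 (82.2 to 100.4). This ratio differed 2.05-fold between C643 and ES-2, and no factor between libraries can change it.

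miR-191-5p and miR-425-5p come from hairpins 383 bases apart on chromosome 3, both in an intron of DALRD3: MIR191 at chr3:49020618-49020709 and MIR425 at chr3:49020148-49020234, minus strand. MIR191 also lies opposite an intron of NDUFAF3, on the plus strand. miR-191-5p was counted at 2115 units in C643 (18043 reads), 2734 in ES-2 (3939 reads) and 6644 in Huh-7 (23598 reads). C643 and ES-2 lay close, at shares of 0.22% and 0.237%, and Huh-7 stood apart at 1.09%. miR-425-5p was counted at 1706 units in C643 (14549 reads), 1052 in ES-2 (1516 reads) and 2043 in Huh-7 (7255 reads), with shares of 0.178%, 0.0912% and 0.334%. Its lowest line was ES-2, not C643, and with a log2 range of 0.96 it was the only member within 2-fold over the 3 lines as deposited. It was not clear of that limit by counting error, since Huh-7 exceeded ES-2 by 1.94-fold with an interval of 1.84 to 2.05. By share its range was 1.87.

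Although their hairpins are neighbours, the reads of miR-191-5p and miR-425-5p did not keep 1 ratio. It was 3.25 in Huh-7 (3.17 to 3.34), 2.6 in ES-2 (2.45 to 2.76) and 1.24 in C643 (1.21 to 1.27), a 2.62-fold spread. The ratios of the arms of miR-423 and of miR-151a and that of miR-103a-3p to miR-107 spread less. The opposite arms of both hairpins were rare: miR-191-5p exceeded miR-191-3p by 36.3-fold, 89.5-fold and 128-fold in C643, ES-2 and Huh-7, and miR-425-5p exceeded miR-425-3p by 42.2-fold, 28.6-fold and 21.8-fold.

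The hairpin MIR423 (chr17:30117079-30117172, plus strand) overlaps an exon of NSRP1, with non-coding genes annotated on the opposite strand, and both of its arms were abundant. miR-423-3p was counted at 4801 units in C643 (40952 reads), 8141 in ES-2 (11728 reads) and 10804 in Huh-7 (38371 reads), with shares of 0.5%, 0.705% and 1.77%. miR-423-5p was counted at 2794 units in C643 (23835 reads), 3606 in ES-2 (5195 reads) and 6371 in Huh-7 (22627 reads), with shares of 0.291%, 0.312% and 1.04%. Both arms were lowest in C643 and highest in Huh-7, and their log2 ranges were nearly equal, 1.17 and 1.19 as deposited and 1.82 and 1.84 by share. The 5p arm had 0.582 reads per read of the 3p arm in C643 (0.573 to 0.591) and 0.59 in Huh-7 (0.58 to 0.599), intervals that overlap, and fewer in ES-2 at 0.443 (0.429 to 0.458).

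miR-151a differed from the members above in its direction. miR-151a-3p was counted at 4127 units in C643 (35201 reads), 1864 in ES-2 (2685 reads) and 1821 in Huh-7 (6469 reads), and miR-151a-5p at 3915 (33396 reads), 1569.5 (2261 reads) and 1374 (4879 reads). Both arms were highest in C643 on both scales. On the deposited scale the 3p arm did not separate ES-2 from Huh-7, with a ratio of 1.02 and an interval of 0.978 to 1.07, while the 5p arm was higher in ES-2 by 0.19 on the log2 scale. By share both arms were higher in Huh-7, where the 3p arm held 0.298% against 0.161% in ES-2, and the 5p arm 0.224% against 0.136%.

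The arms of miR-151a moved together, with 0.949, 0.842 and 0.754 reads of the 5p arm per read of the 3p arm in C643, ES-2 and Huh-7, a 1.26-fold spread. Their hairpin, MIR151A (chr8:140732564-140732653, minus strand), lies in an intron of PTK2, the gene of focal adhesion kinase. miR-151b, which is near-identical to miR-151a-5p, was counted at 189, 8 and 35 reads in C643, ES-2 and Huh-7, a small number beside those of the 5p arm.

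miR-186-5p, from MIR186 in an intron of ZRANB2 (chr1:71067631-71067716, minus strand), was counted at 2545 units in C643 (21710 reads), 1307 in ES-2 (1883 reads) and 2794 in Huh-7 (9922 reads). C643 and Huh-7 lay within 1.1-fold of each other as deposited (1.07 to 1.12), and ES-2 was 2.14-fold below Huh-7 (2.03 to 2.25). By share Huh-7 held 0.456%, C643 0.265% and ES-2 0.113%, a log2 range of 2.01 against 1.10 as deposited. The opposite arm, miR-186-3p, had 0 reads in all 3 libraries.

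**Figure D2:**
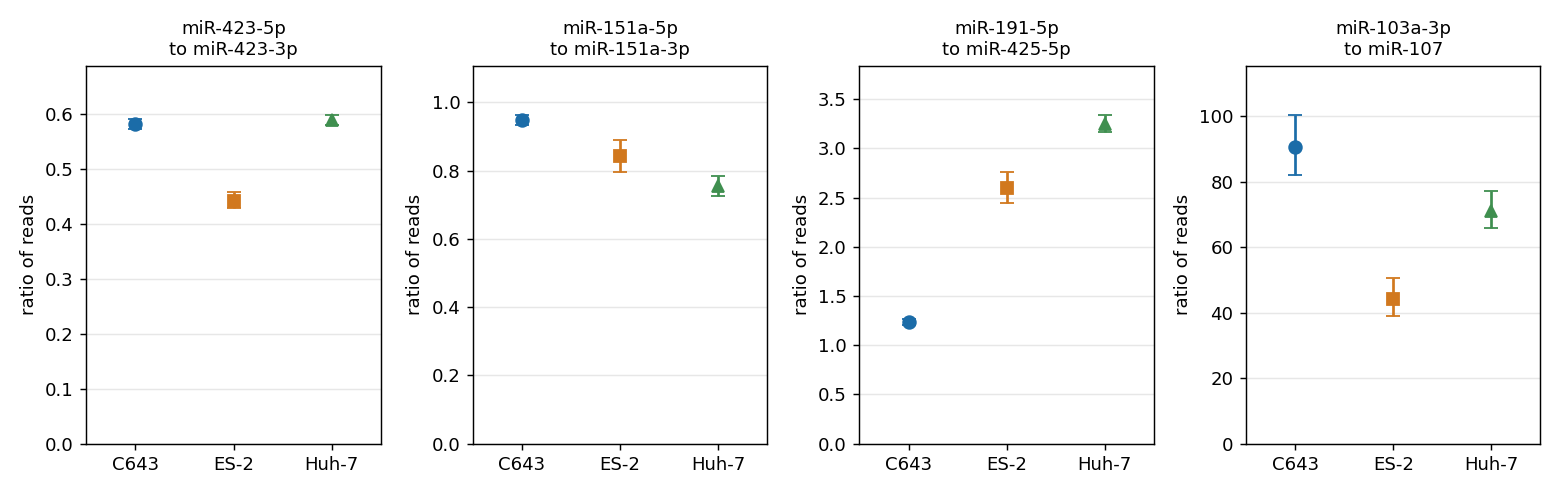
Ratio of the recovered reads of 2 members within each library, with exact 95% intervals of the read split, on linear axes from 0. The arm ratios of miR-423 and miR-151a spread 1.33-fold and 1.26-fold over the lines, the ratio of the neighbours miR-191-5p and miR-425-5p 2.62-fold and that of miR-103a-3p to miR-107 2.05-fold.

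ES-2 and Huh-7 were deposited in the same table, and between them the deposited scale kept 7 of 9 members within 2-fold. The other 2, miR-191-5p and miR-186-5p, were 2.43-fold and 2.14-fold higher in Huh-7, and 0 were 2-fold higher in ES-2. Of 390 miRNAs at 10 or more units in at least 1 of the 2 libraries, 40.3% were at least 2-fold higher in Huh-7 and 29.2% in ES-2. By share 7 members were at least 2-fold higher in Huh-7 and 0 in ES-2, against 56.7% and 20.8% of the 390. The median log2 difference, ES-2 minus Huh-7, was -0.79 for the members and -0.54 for all tested as deposited, and -1.71 and -1.44 by share, so on both scales the median of the members lay below that of all tested. miR-107, miR-423-3p and both arms of miR-151a lay above the median of all tested on both scales.

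An exact binomial test of the reads of ES-2 and Huh-7, with Benjamini-Hochberg adjustment at 0.05, compares these libraries and not the lines. With the deposited factors it called 6 members higher in Huh-7 and 1 higher in ES-2, against 53.8% and 34.4% of the 390 miRNAs. The member called higher in ES-2 was miR-151a-5p, and miR-107 and miR-151a-3p were not called. With library totals as the factors it called 9 members higher in Huh-7 and 0 in ES-2, against 66.7% and 25.6%.

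Between C643 and ES-2, 6 of 9 members lay within 2-fold as deposited. Both arms of miR-151a were at least 2-fold higher in C643, against 32.8% of 351 miRNAs tested, and miR-107 was at least 2-fold higher in ES-2, against 25.4%. By share miR-186-5p joined the arms of miR-151a above 2-fold in C643, which made 3 members against 37.6%, and miR-107 remained 2-fold higher in ES-2, against 19.7%. The median log2 difference of the members, C643 minus ES-2, was -0.37 as deposited and -0.10 by share, where all tested had 0.07 and 0.34.

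C643 and Huh-7 were the pair in which the members stood furthest apart as deposited, where only miR-425-5p and miR-186-5p were within 2-fold. Both arms of miR-151a were at least 2-fold higher in C643 (31.1% of 399 miRNAs tested), and miR-103a-3p, miR-107, miR-191-5p and both arms of miR-423 were at least 2-fold higher in Huh-7, 5 of 9 against 39.3%. By share the arms of miR-151a came within 2-fold, leaving 0 members 2-fold higher in C643 (24.6% of all) and the same 5 higher in Huh-7 (47.4%). The median log2 difference, C643 minus Huh-7, was -1.17 as deposited and -1.82 by share for the members, and -0.21 and -0.84 for all tested.

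**Figure D3:**
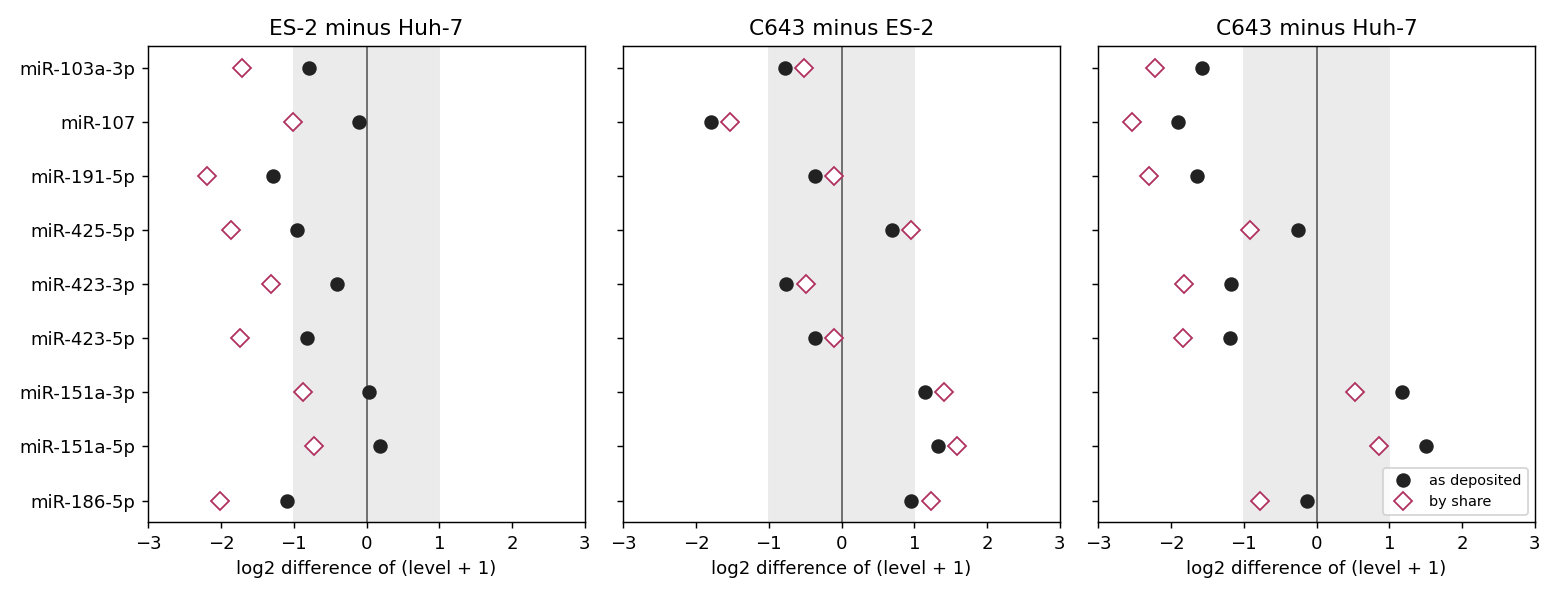
Log2 difference of each member between 2 libraries for the 3 pairs of lines, as deposited (filled circles) and by share (open diamonds), with the 2-fold band shaded. A change of scaling moves all members of a panel by nearly the same amount, and the members stay apart by 1.47 (ES-2 and Huh-7), 3.11 (C643 and ES-2) and 3.41 (C643 and Huh-7) on the log2 scale.

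No factor can bring the members closer to each other than their own differences allow. Between ES-2 and Huh-7 the member most in favour of ES-2, miR-151a-5p, and the member most in favour of Huh-7, miR-191-5p, differed by 1.47 on the log2 scale, or 2.78-fold. Between C643 and ES-2 the members spanned 3.11 (8.65-fold, from miR-107 to miR-151a-5p), and between C643 and Huh-7 3.41 (10.6-fold, from the same miR-107 to the same miR-151a-5p). The middle part of the members was tighter than the miRNAs at large: the interquartile range of the log2 differences as deposited was 0.85 for the members and 3.93 for all tested between ES-2 and Huh-7, 1.72 and 2.32 between C643 and ES-2, and 1.44 and 3.57 between C643 and Huh-7. All tested miRNAs include miRNAs of much lower counts than the members. They needed 10 units in only 1 of the 2 libraries, so they include some nearly absent from the other. The part of counting error and of this choice in their wider spread was not tested. For miRNAs at 100 or more units in every library the median log2 range over the lines was 1.47 as deposited and 1.82 by share. For the members it was 1.19 and 1.87, so by share they were not tighter.

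Over the 3 lines, 1 of 9 members was within 2-fold as deposited and 0 by share. The 1 member was miR-425-5p, whose interval reached past 2-fold. Of the 97 miRNAs at 100 or more units in every library, which include the members other than miR-107, 25.8% were within 2-fold as deposited and 13.4% by share. The median log2 range of the members was 1.19 as deposited and 1.87 by share, beside 1.47 and 1.82 for the 97. As deposited all 9 members were within 4-fold, as were 68 of the 97, and by share 5 members and 59 of the 97 were. Of the 9 members, 7 were highest in Huh-7 on both scales, a position held by 40.2% of the 97 as deposited and 63.9% by share.

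Other scalings moved these counts without levelling the list. Leaving miR-21-5p, the most abundant miRNA of each library, out of the total gave 0 members within 2-fold, beside 9 of the 97 miRNAs, and a median range of the members of 1.98. Leaving the 5 most abundant miRNAs of each library, 10 in all, out of every total gave 0 members, beside 21 of the 97, and 1.73. Median-ratio factors gave 2 members (miR-425-5p and miR-186-5p), beside 33 of the 97, and 1.23. TMM factors from edgeR gave 2 members (miR-425-5p and miR-423-3p), beside 30 of the 97, and 1.36. Within 4-fold were 9 of 9 members with median-ratio and with TMM factors, beside 64 and 68 of the 97. Of the shares, the one without miR-21-5p had 5 members and 54 of the 97 within 4-fold, and the one without the 5 most abundant had 6 members and 67 of the 97, about as many of the 97 as on the deposited scale. TMM set ES-2 against Huh-7 by 0.96 relative to share, near the 0.92 of the deposited values. The pairs with C643 lay further apart. C643 against ES-2 was set by -0.12 with TMM and -0.27 as deposited, and C643 against Huh-7 by 0.83 and 0.65.

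Scaling each library to the geometric mean of the members themselves, which brings them together by construction, gave 5 of 9 within 2-fold and a median range of 0.99, beside 35 of the 97 and 1.32. Between ES-2 and Huh-7 all 9 were then within 2-fold, which this scaling favours by construction. No count over all tested miRNAs is given for that pair under this scaling. Both arms of miR-151a and miR-107 still had ranges above 1.7, and miR-151a-5p, at 2.09, was the 1 member beyond 4-fold.

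**Figure D4:**
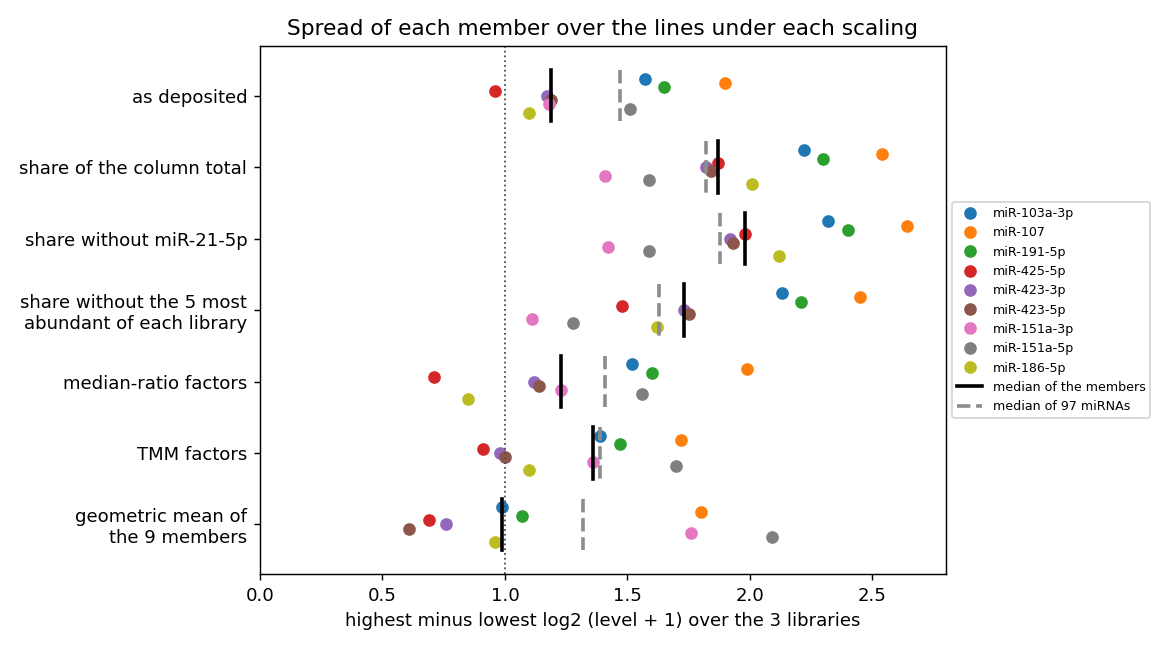
Log2 range of each member over the 3 libraries under 7 scalings, with the median of the members (solid line), the median of the 97 miRNAs at 100 or more units in every library (dashed line) and the 2-fold limit (dotted line). Between 0 and 2 members lie left of the limit, except with the geometric mean of the members as the scale, where 5 do.

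The ratio of 2 members within a library is free of any scaling, so the SD of its log2 over the 3 libraries shows which members moved together. Over the 36 pairs the median SD was 0.79, with a range of 0.13 to 1.90, and 22.2% of pairs had an SD under 0.5. Among the 97 miRNAs, which leave out miR-107, the median over 4656 pairs was 1.19, and 15.3% were under 0.5. Without miR-107 the members gave 28 pairs with a median of 0.77, and 28.6% were under 0.5. The pairs of members under 0.5 include the arms of miR-151a (0.17) and of miR-423 (0.23), each pair from 1 hairpin. The 3 points of a pair are 3 libraries, and the pairs share them, so these values are a description.

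The closest pair was miR-425-5p and miR-186-5p, at 0.13, whose ratio varied 1.2-fold over the lines although their genes lie on chromosomes 3 and 1. The arms of miR-151a followed at 0.17. miR-103a-3p had an SD of 0.23 against each arm of miR-423, which had the same 0.23 against each other. The widest pair was miR-107 and miR-151a-5p, at 1.90, with a 10.8-fold change of their ratio. By the mean SD to the other 8 members, miR-423-5p was the most central at 0.66, followed by miR-423-3p at 0.71, miR-425-5p at 0.74, miR-103a-3p at 0.75, miR-191-5p at 0.79 and miR-186-5p at 0.81, and miR-151a-3p, miR-107 and miR-151a-5p were the least at 1.08, 1.11 and 1.22.

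**Figure D5:**
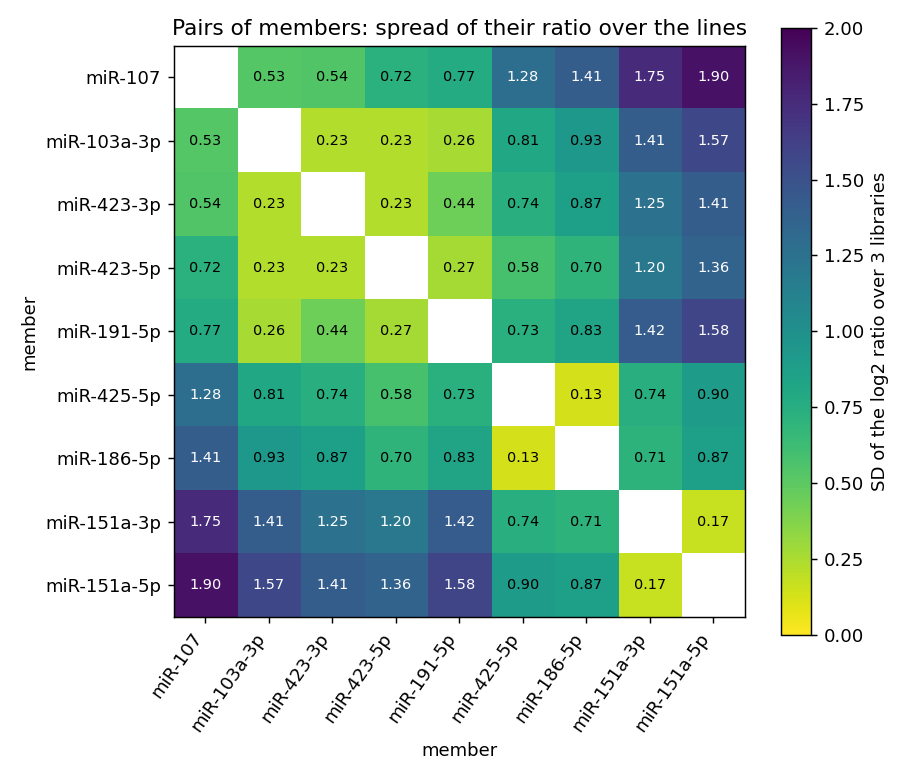
SD over the 3 libraries of the log2 ratio of each pair of members, in which low values (light) mark pairs whose ratio was similar in the lines. miR-103a-3p, both arms of miR-423 and miR-191-5p lie between 0.23 and 0.44 of each other, miR-425-5p and miR-186-5p at 0.13, and the arms of miR-151a at 0.17.

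A further 11 miRNAs that are also used as references gave a comparison list, and all 11 were listed. As deposited 3 of the 11 were within 2-fold over the lines and by share 1 was, with median log2 ranges of 1.08 and 1.73. Of the 3, miR-345-5p lay at the limit, at 2.01-fold before 1 was added to the levels. The 1 by share was miR-328-3p, with only 162, 57 and 69 reads in C643, ES-2 and Huh-7. miR-30e-5p was the most level of the 11 as deposited, with 3749, 4075 and 4347 units (C643, ES-2, Huh-7). Its log2 range was 0.21 as deposited and 1.01 by share. miR-16-5p, a common reference in blood, was counted in the same libraries at 4280.1, 3550.1 and 4718 units, with ranges of 0.41 and 1.33. miR-24-3p, at 11805, 4679 and 2826 units, and miR-93-5p, at 2367, 4759 and 8408, ran in opposite orders over the lines as deposited. By share miR-24-3p was lowest in ES-2, at 0.405% beside 0.462% in Huh-7 and 1.23% in C643, and the orders were not opposite.

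Outside the members, the 5 miRNAs with the smallest log2 range as deposited were miR-339-3p (0.06), miR-106b-3p (0.08), miR-140-3p (0.08), miR-30d-5p (0.14) and miR-30e-5p (0.21). By share the 5 smallest were miR-92a-1-5p (0.16), miR-21-5p (0.24), miR-30b-5p (0.39), miR-769-5p (0.46) and miR-101-3p (0.48). The lists had no miRNA in common. The first 5 had ranges of 0.88 to 1.01 by share, and those of the second list were 0.46 to 1.09 as deposited. They were picked for their small range on these libraries, so their levels are a description.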

How the data were processed

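The authors extracted total RNA with TRIZOL, used 50 ng for a library with the NEXTflex kit for small RNA, and sequenced on an Illumina HiSeq. The paper also names Novogene for small RNA libraries and their sequencing, and does not say which libraries this concerns. The submitters' processing notes name cutadapt 1.14, Bowtie2 2.3.3, SAMtools 1.5, featureCounts 1.5.3, edgeR 3.18.1 and hg38; settings, the treatment of reads that fit several loci and any use of the random adapter bases as molecular identifiers are not given in the sources used here. The deposited values, a signal per locus named CPM, were reads multiplied by a library factor: dividing by the value of 1 read gave whole reads for 100% of values above 0 (tolerance 0.01). Which factor the authors used was not tested, and plain CPM had been assumed in the design.

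Values of 2813 loci were summed to 2588 mature miRNAs, of which 167 have several loci. Levels were taken as log2(value + 1), so that the change of a low miRNA is understated. Shares were brought to the mean column total before 1 was added. A pair of libraries was tested over miRNAs at 10 or more units in 1 of them, and the range over 3 libraries over miRNAs at 100 or more in each. A log2 difference of 1 or more is called 2-fold. Shares carry Wilson and ratios exact (Clopper-Pearson) 95% intervals. A miRNA with 0 reads was given a limit of 3 reads, and intervals and limits cover counting error only, since reads may be copies of fewer molecules. Alternatives were shares without miR-21-5p or without the 5 most abundant miRNAs of each library (10 in all, left out of every total). Others were median-ratio and TMM factors (edgeR 4.0.16), other pseudocounts, filters and limits, and 1 locus for each miRNA. Chosen after seeing the data were the scaling to the geometric mean of the members, the list without miR-151a and the read test. The named miRNAs are the members, the partner arms and near-identical miRNAs, 11 other references and the 5 most level miRNAs on each scale; miR-3184 and miR-361-3p were chosen after their values were seen. The members and lists were chosen with earlier results of these data known. Of 7 partner miRNAs 6 were found, and miR-103a-1-5p was not analysed here. Precursor positions and overlapping genes come from GENCODE on GRCh38, and mature sequences from RefSeq without its chromosome 8 entries. Data were simulated for ES-2 and Huh-7 (390 miRNAs) with Poisson counts and a known library factor. Of 200 miRNAs changed 4-fold 99% passed 2-fold, and of 190 unchanged ones 1.58% did. With the factor known and counting error alone, this cannot show how an unknown factor or variation between libraries acts. Analyses used Python 3.11.15, pandas 2.3.3 and scipy 1.17.1.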

Additional observations from a re-analysis of the deposited data

How the results depend on the processing

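Other scalings, pseudocounts, filters, limits, loci and lists of members, and the read test, gave 90 alternative values for the main results. For differences of single members there were 216 alternative values. Most were classed as moved from the main value, 57 of the 90 and 137 of the 216. The median log2 range of the members, 1.19 as deposited, stayed at 1.19 with a pseudocount of 10 and with 1 locus for each miRNA. These 2 settings could hardly move it. Of the members only miR-103a-3p has 2 loci, and all but miR-107 had at least 1052 units in every library. The median differences of the members kept their sign in all 30 alternatives. Differences of single members changed sign in 12 of the 216, all from differences of at most 0.41 in size as deposited. Between ES-2 and Huh-7, miR-151a-5p went from 0.19 to -0.72, -0.83 and -0.33 and miR-151a-3p from 0.03 to -0.88, -0.99 and -0.49 by share, by share without miR-21-5p and by share without the 5 most abundant miRNAs of each library, miR-107 from -0.10 to 0.14 with median-ratio factors and 0.47 with the geometric mean of the members, and miR-423-3p from -0.41 to 0.17 with the latter. Between C643 and Huh-7, miR-186-5p went from -0.13 to 0.05 with TMM factors and 0.44 with the geometric mean, and miR-425-5p from -0.26 to 0.32 with the geometric mean. By share, by share without miR-21-5p and by share without the 5 most abundant miRNAs of each library, 0, 0 and 0 members were within 2-fold over the lines, with median log2 ranges of 1.87, 1.98 and 1.73. With median-ratio factors, TMM factors and the geometric mean of the members they were 2, 2 and 5, with 1.23, 1.36 and 0.99. As deposited a limit of 1.5-fold left 0 members, with no count over the 97 miRNAs to set beside it. A limit of 4-fold left 9 members, beside 68 of the 97. For these 6 scalings in the same order the median log2 difference ES-2 minus Huh-7 was -1.71, -1.81, -1.32, -0.55, -0.75 and -0.21, and C643 minus Huh-7 was -1.82, -1.92, -1.73, -1.12, -0.98 and -0.59. C643 minus ES-2 was -0.10 by share, -0.09 without miR-21-5p, -0.56 with median-ratio factors and -0.22 with TMM factors. Without both arms of miR-151a, 1 of the members left was within 2-fold as deposited, the median range was 1.19, and the median differences were -0.82, -1.19 and -0.37 in the order of the pairs just given. The shifts between scalings follow from the factors alone, which move all miRNAs of a library alike.

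The summed share of the members in C643, ES-2 and Huh-7 was 3.84%, 3.35% and 10.9% without miR-21-5p in the total. Without the 5 most abundant of each library, 10 in all, it was 7.52%, 8.12% and 18.8%. It was 2.63%, 2.77% and 4.47% of 1000000 units, and 3.04%, 2.44% and 6.88% with 1 locus for each miRNA. With 1 locus the ratio of miR-103a-3p to miR-107 was 46.2, 21.9 and 35.8. At 100 or more units in 1 library of a pair, ES-2 was 2-fold higher for 64 miRNAs and Huh-7 for 64, C643 for 49 and ES-2 for 38, and C643 for 70 and Huh-7 for 75. With no filter these counts were 213 and 372, 249 and 228, and 237 and 369. No paired analysis was possible because no line has a second library, and no replicate could be left out for the same reason. Depth limits miR-107 most, with 238 reads in ES-2.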

Other observations

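miR-361-5p, another miRNA used as a reference, had 0 reads in Huh-7, 2090 in C643 and 1196 in ES-2. In Huh-7, 0 of 2173587 reads allows a share of up to 0.000138%. Against 3 reads in Huh-7 the level as deposited was at least 290.1-fold higher in C643 and at least 983-fold higher in ES-2. By share these bounds were 185-fold and 521-fold. The opposite arm of the hairpin, miR-361-3p, was looked at after this value was seen. It had 0 reads in Huh-7, 774 in C643 and 720 in ES-2.

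The blood cell miRNAs miR-451a and miR-223-3p had at most 1 read in any library, and miR-150-5p had 2 reads in Huh-7, 24 in C643 and 2 in ES-2.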
